A study of Mus musculus with 7 samples.

Results

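The 10 genes described here are markers of macrophages: Cd68, Lgals3, Ctss, Cd14, Mrc1, Cd163, C1qa, C1qb, C1qc and Csf1r. They were chosen by symbol, each had 1 row with a single gene symbol on the array, and they are 10 of the 19938 genes named there. Their RNA was followed in the left plantaris, a fast calf muscle, of male C57BL/6J mice aged 5 months as the muscle regrew after 2 weeks of hind limb suspension. The groups are d0, the control taken when suspension ended, and d1, d3, d5, d7, d10 and d14 of reloading; all animals, the controls included, had been suspended, and a group that was never suspended is not analysed here. Each group is a single Affymetrix Mouse Gene 1.0 ST array of RNA pooled from 6 animals. A difference between days therefore has no replicate error and no p-value, and the spread between animals is not seen. Whole muscle was used, so more macrophages and more RNA per macrophage cannot be told apart.

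Macrophages arise from blood monocytes or from cells seeded in the tissue early in life, and they depend on the receptor Csf1r. In skeletal muscle, resident macrophages lie in the connective tissue around fibres and carry scavenger receptors such as Mrc1 (CD206) and Cd163. Cells that take up debris are rich in lysosomal and endosomal proteins, such as Cd68 and the protease cathepsin S. After injury, monocyte-derived cells clear debris and are followed by macrophages that accompany repair.

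The arrays had median intensities of 128.1 to 131.8 over 35556 rows. The 8 muscle fibre genes checked, among them Ckm and Acta1, all passed the filter on low values, which asks that a gene reach the array's median intensity at least once. Their summed intensity lay between 122519 and 129170. The filter kept 12102 genes and 8 of the 10 markers. By Spearman's rho over all rows, the d0 array stood apart, with a mean of 0.972 to the others against 0.984 to 0.989 for the rest. Because each ratio to d0 shares that array, ratios of the markers and medians of the gene lists are also given against d14. The median gene kept lay 0.10 above d0 at d1 and 0.05 to 0.10 above it on the other days (log2).

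Cd68 was higher than at d0 by 2.04 at d1, 1.71 at d3 and 1.13 at d5 on the log2 scale, far more than any other marker. Lgals3, Ctss and Mrc1 were highest at d1 at smaller ratios, C1qb and C1qc at d3 and C1qa at d5. Cd14 and Cd163 stayed between 98.6 and 113.0 on every array, below the array medians. Of the 10 markers, 4 were at least 1.5-fold higher at d1 (Cd68, Lgals3, C1qc and Ctss), as were 3.45% of all genes kept. Quantile normalization ended the calls of C1qc and Ctss (0.56 each) and left 2 markers, as did a pseudocount of 32 or the mean of the remaining 6 arrays as the reference. The share over all genes was not computed for these settings. At d3 and d5 Cd68 and C1qc were at least 1.5-fold higher than at d0, against 1.65% and 1.36% of genes. At d7 none was, against 1.74%; at d10 C1qc alone was, against 2.28%; and at d14 none, against 0.678%. At 2-fold Cd68 alone passed at d1, d3 and d5, against 0.653%, 0.413% and 0.182% of genes. No marker was 1.5-fold lower on any day, where 1.02%, 0.843%, 0.802%, 0.859%, 0.826% and 0.694% of genes were from d1 to d14. Against d14, the markers at least 1.5-fold higher were Cd68, Lgals3 and Mrc1 at d1 (1.61% of genes), Cd68, C1qb and Mrc1 at d3 (0.719%), Cd68 at d5 (0.248%), none at d7 (0.116%) and Cd68 at d10 (0.645%). The median over all 10 markers was 0.45, 0.33, 0.14, -0.02, 0.15 and -0.07 from d1 to d14, beside medians over all genes kept of 0.10, 0.07, 0.05, 0.08, 0.10 and 0.08.

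**Figure D1:**
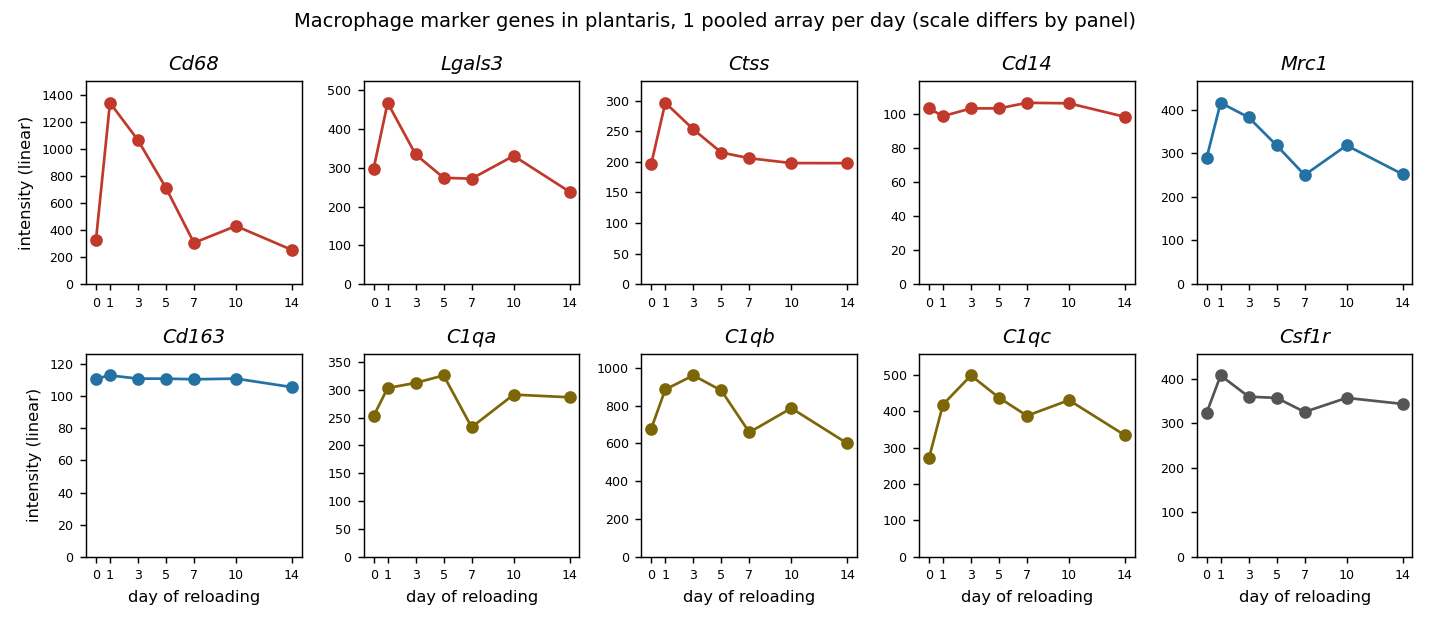
Deposited intensity (linear scale, from 0, different in each panel) of each marker against the day of reloading, 1 pooled array per point and no error. Cd68 goes from 326.5 at d0 to 1345.5 at d1 and back to 305.9 at d7, while Cd14 and Cd163 stay between 98.6 and 113.0.

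Of the phagocytic markers, Cd68, Lgals3 and Ctss were highest at d1. Cd68, a heavily glycosylated protein of the lysosome and endosome membrane, had intensities of 326.5 at d0, then 1345.5 at d1, 1068.2 at d3 and 713.6 at d5, and 305.9, 431.1 and 253.0 at d7, d10 and d14. The d1, d3 and d5 arrays were high and the d0, d7, d10 and d14 arrays low, with a gap between 431.1 and 713.6. The ratio to d0 was 4.12-fold at d1, 3.27-fold at d3 and 2.19-fold at d5. By that ratio Cd68 ranked 9 among the 12102 genes kept at d1, 8 at d3 and 13 at d5. Set against d14, its lowest array, it stood at 2.41, 2.08 and 1.496 on these days and ranked 3, 1 and 2. From d5 to d7 it fell by 1.22 on the log2 scale, rank 2 from the lowest, when 0.0248% of genes were at least 2-fold lower. It was higher again at d10, by 0.49 over d7 and 0.77 over d14.

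Lgals3 encodes galectin-3, a carbohydrate-binding lectin made by activated macrophages. Its intensities were 297.9, 467.9, 334.5, 274.2, 272.1, 330.9 and 238.1 in the order of the days. Its d1 array was the highest, and d3 already lay 0.48 below d1 on the log2 scale. Against d0 its log2 ratio was 0.65 at d1, 0.17 at d3 and -0.12 at d5, and against d14 it was 0.97, 0.49 and 0.20. Ctss, the lysosomal cysteine protease cathepsin S that also trims the invariant chain of MHC class II, had intensities of 196.9, 296.7, 253.3, 215.3, 206.0, 198.0 and 197.9. Its values stepped down from d1 to d14, and the d0 and d14 arrays differed by 0.01 on the log2 scale. Its ratios of 0.59 at d1 and 0.36 at d3 were thus nearly the same against d14, at 0.58 and 0.36. At d10, when Cd68 and Lgals3 were above both neighbouring days, Ctss was not.

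Cd14, the membrane receptor that hands bacterial lipopolysaccharide to Tlr4, had intensities of 103.6, 99.0, 103.6, 103.6, 106.9, 106.6 and 98.6. It did not pass the filter, and 3 arrays carried the same deposited value. Equal values on at least 2 arrays were common in the file, at 55.5% of genes kept and 80.1% of the rest. Its highest array was 1.08-fold its lowest. Tlr4 itself, at 108.2 at d0, 254.2 at d1, 160.8 at d3 and 127.9 at d14, was 1.23 higher at d1 than at d0 (log2).

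The promoters of Cd68 and Ctss, markers that led at d1, are shown because their course differed in size but not in the day of the peak. They run from 250 bases before to 50 bases after the start of the gene (RefSeq, GRCm38.p6), and 7 of the 10 markers had such an entry. Capitals mark matches on either strand to GAGGAA, the core of the site of the myeloid factor PU.1 (Spi1), and to TGANTCA, the AP-1 site; the E-box CACGTG was searched too. The 2 printed windows are chr11:69666121-69666420 (minus strand) for Cd68 and chr3:95526536-95526835 (plus strand) for Ctss.
Cd68: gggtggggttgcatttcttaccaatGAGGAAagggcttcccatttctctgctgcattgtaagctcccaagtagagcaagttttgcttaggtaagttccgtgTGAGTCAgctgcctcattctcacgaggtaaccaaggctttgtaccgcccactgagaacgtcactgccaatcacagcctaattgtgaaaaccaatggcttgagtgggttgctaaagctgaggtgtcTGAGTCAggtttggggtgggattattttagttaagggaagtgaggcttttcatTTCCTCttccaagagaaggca
Ctss: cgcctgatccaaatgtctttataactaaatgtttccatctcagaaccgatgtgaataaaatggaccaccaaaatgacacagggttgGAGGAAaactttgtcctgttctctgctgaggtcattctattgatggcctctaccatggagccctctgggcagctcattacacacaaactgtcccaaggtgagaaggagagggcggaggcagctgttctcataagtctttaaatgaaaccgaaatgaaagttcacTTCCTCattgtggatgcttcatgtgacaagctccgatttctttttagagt
Cd68 held 2 matches to GAGGAA and 2 to TGANTCA, and Ctss held 2 to GAGGAA and none to the others. Of the 7 markers with a promoter entry, 5 held GAGGAA (Cd68, Ctss, Mrc1, C1qb and C1qc), while Lgals3 and Cd163 held none of the 3 motifs. Among 27025 promoters of the same length, 28.3% held GAGGAA, 7.93% TGANTCA and 7.24% CACGTG. A match describes these letters and is not evidence of binding.

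C1qa, C1qb and C1qc encode the 3 chains of C1q, which opens the classical complement pathway by binding antibodies or dying cells and is made largely by tissue macrophages. All 3 were above d0 at d1, d3, d5 and d10. C1qb had intensities of 678.2 at d0, then 884.9, 959.2 and 879.6 at d1, d3 and d5, and 657.9, 786.0 and 599.3 at d7, d10 and d14. The d1, d3 and d5 arrays were its highest, and its log2 ratio was 0.38, 0.50 and 0.38 to d0 and 0.56, 0.68 and 0.55 to d14. C1qc went from 270.7 at d0 to 418.3, 498.5, 437.4, 387.6, 430.5 and 333.8. Its d0 array was its lowest, so it lay 0.30 to 0.88 above d0 on all 6 later days. Against d14 its ratios were 0.33, 0.58, 0.39, 0.22 and 0.37 from d1 to d10, and none of these reached 1.5-fold. C1qa had intensities of 252.8, 303.0, 312.3, 325.7, 232.7, 291.2 and 286.4. It was highest at d5, by 0.37 over d0 but only by 0.19 over d14, and its d7 array was its lowest.

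Unlike Cd68, Lgals3 and Ctss, which were all lower at d3 than at d1, the 3 C1q chains were all higher at d3. From d1 to d3 the log2 change was 0.04 for C1qa, 0.12 for C1qb and 0.25 for C1qc, against -0.33 for Cd68, -0.48 for Lgals3 and -0.23 for Ctss. The median gene moved by -0.02 between these arrays, with a robust SD over genes of 0.137. The values of C1qa and C1qb thus lay within that spread. The mean log2 ratio of the C1q chains to d0 was 0.42, 0.56, 0.48, 0.12, 0.36 and 0.10 from d1 to d14. That of Lgals3 and Ctss was 0.62, 0.27, 0.00, -0.03, 0.08 and -0.16. The C1q mean minus the latter was -0.20 at d1, 0.30 at d3 and 0.47 at d5, and against d14 it was -0.46, 0.04 and 0.21. With Cd68 included in the latter, it was -0.67, -0.18 and 0.10 to d0, and -0.51 and -0.23 at d3 and d5 to d14, so its sign at d3, and against d14 at d5, depends on Cd68. No test of this order is possible with 1 array per day.

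The promoters of C1qb and C1qc are printed because these chains shared the day of their peak. They are chr4:136886151-136886450 and chr4:136892865-136893164, both on the minus strand, with GAGGAA in capitals on either strand.
C1qb: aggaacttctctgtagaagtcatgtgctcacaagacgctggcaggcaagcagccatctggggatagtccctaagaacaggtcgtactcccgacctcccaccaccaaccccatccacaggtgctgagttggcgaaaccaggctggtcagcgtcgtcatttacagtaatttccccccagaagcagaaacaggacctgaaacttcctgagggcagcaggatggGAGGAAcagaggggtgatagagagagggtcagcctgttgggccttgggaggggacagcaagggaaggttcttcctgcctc
C1qc: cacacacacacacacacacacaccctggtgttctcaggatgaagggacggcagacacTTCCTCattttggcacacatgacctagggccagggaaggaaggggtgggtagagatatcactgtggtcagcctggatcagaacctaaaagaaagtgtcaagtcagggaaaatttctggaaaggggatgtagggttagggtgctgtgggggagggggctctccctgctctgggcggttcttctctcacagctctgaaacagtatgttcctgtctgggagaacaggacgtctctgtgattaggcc
Each held 1 match, starting 30 bases before the start site in C1qb and 193 bases before it in C1qc, and neither held TGANTCA or CACGTG.

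Of the resident-type markers, Mrc1 could be followed and Cd163 could not. Mrc1, the mannose receptor that clears glycoproteins and collagen fragments, had intensities of 289.1 at d0, then 415.7, 382.3 and 318.0 at d1, d3 and d5, and 250.1, 318.0 and 251.8 at d7, d10 and d14. The d1 and d3 arrays were high and the d7 and d14 arrays low. Its log2 ratio to d0 was 0.52, 0.40, 0.14, -0.21, 0.14 and -0.20 from d1 to d14. Against d14 it stood at 0.72 at d1 and 0.60 at d3, both past 1.5-fold, with d0 itself at 0.20. Cd163, the scavenger receptor for haptoglobin and haemoglobin, had intensities of 111.0, 113.0, 111.0, 111.0, 110.6, 111.0 and 105.7. It carried 1 value on 4 arrays, did not pass the filter, and its highest array was 1.07-fold its lowest.

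Resident-type and phagocytic markers were compared by the mean log2 ratio of Mrc1 and Cd163 minus that of Cd68, Lgals3, Ctss and Cd14. Against d0 the difference was -0.53, -0.36, -0.22, -0.08, -0.08 and 0.05 from d1 to d14. Against d14 it was -0.58, -0.41, -0.27, -0.13 and -0.14 from d1 to d10. The phagocytic mean was the higher at d1, d3 and d5 against either array, whereas at d7 and d10 the sign turned to 0.11 and 0.11 against the mean of the remaining 6 arrays, which gave -0.050 at d5, and with Cd163 alone it was 0.023 at d7. The difference rested on Cd68: without it, it was -0.12 at d1, 0.025 at d3 and 0.066 at d5. Its size also depended on Cd163 and Cd14, which did not pass the filter. With Mrc1 alone as resident-type it was -0.28 at d1 and -0.16 at d3. Leaving out Cd14 as well gave -0.57 and -0.34. Mrc1 minus the mean of Lgals3 and Ctss was -0.10, 0.14, 0.13, -0.18, 0.06 and -0.04 from d1 to d14. Mrc1 minus Cd68 was -1.52, -1.31 and -0.99 at d1, d3 and d5. The robust SD of the log2 ratio over all genes kept was 0.179, 0.153 and 0.157 on those 3 days, so Mrc1 and the pair of Lgals3 and Ctss lay within it of each other. That SD is a spread across genes and not the error of these values.

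**Figure D2:**
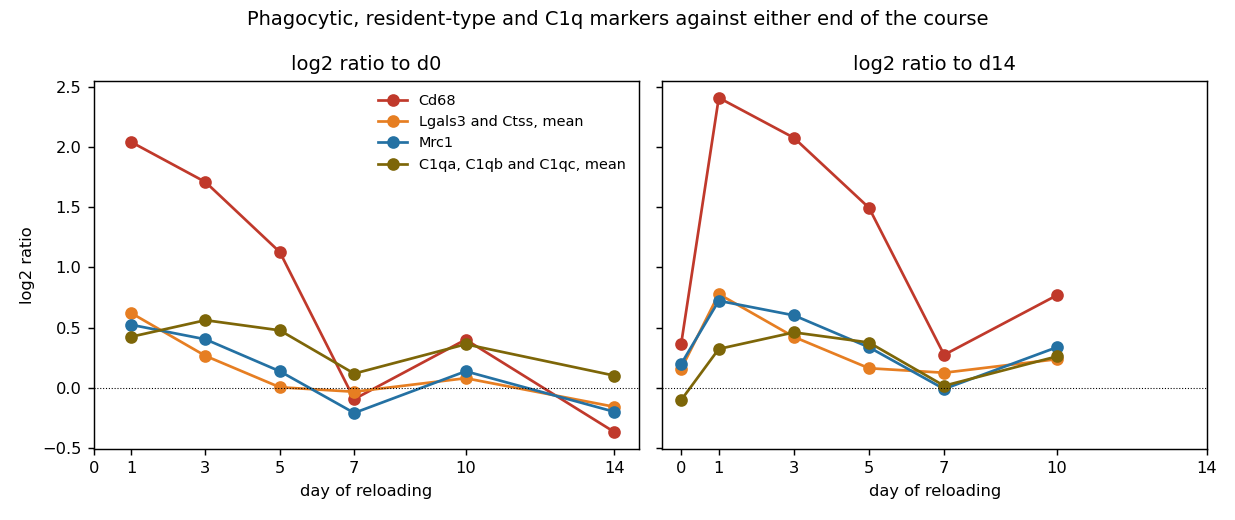
Log2 ratio of Cd68, of the mean of Lgals3 and Ctss, of Mrc1 and of the mean of the C1q chains against the day of reloading, relative to d0 (left) and to d14 (right), 1 pooled array per day. Cd68 stands apart from d1 to d5 against either array, and the other 3 lines stay within 0.78 of the reference.

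Csf1r, the receptor for the growth factors Csf1 and Il34 on which macrophages depend, varied least among the markers that passed the filter. Its intensities were 323.3, 407.5, 359.7, 357.0, 325.4, 357.0 and 343.4, with d1 the highest by 0.33 over d0 and 0.25 over d14 (log2). Its span of 0.33 over the 7 arrays was close to the median span of 0.31 over all genes kept, whereas Cd68 spanned 2.41, Lgals3 0.97, C1qc 0.88, Mrc1 0.73, C1qb 0.68, Ctss 0.59 and C1qa 0.49.

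**Figure D3:**
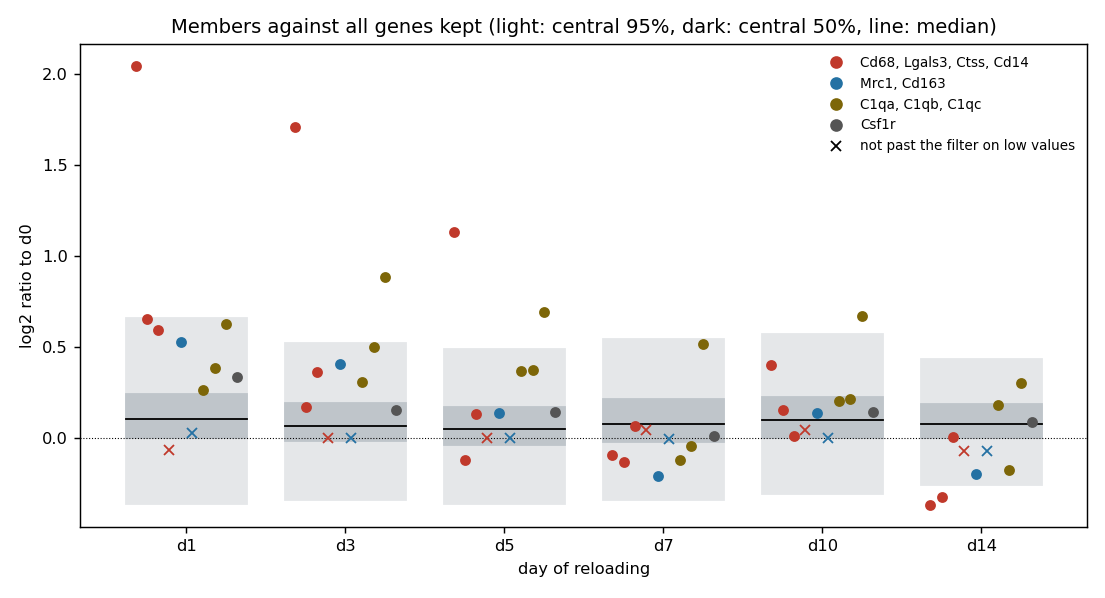
Log2 ratio of each marker to d0 by day (points; crosses for Cd14 and Cd163, which did not pass the filter) over the distribution of 12102 genes kept (light bar, central 95%; dark bar, central 50%; line, median). Cd68 lies above the light bar at d1, d3 and d5, and C1qc at d3, d5 and d10. At d14 Cd68 and Lgals3 lie below it, with 1.36% and 1.76% of genes lower.

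The d1 and d3 arrays were the 2 highest for 6 of the 10 (Cd68, Lgals3, Ctss, Mrc1, C1qb and Csf1r), as for 6.81% of all genes kept. At d7, 8 of 10 lay below both d5 and d10, against 30.4% of genes, and at d10, 8 of 10 lay above both d7 and d14, against 43.6%. Both counts include Cd163, at 111.0, 110.6, 111.0 and 105.7 at d5, d7, d10 and d14. Cd163 did not pass the filter, while the shares are over genes kept. The markers were chosen with earlier results of these data known and genes of 1 cell type vary together, so these shares are a description. Over d7, the d10 array stood at 0.49 for Cd68, 0.35 for Mrc1, 0.32 for C1qa, 0.28 for Lgals3 and 0.26 for C1qb (log2). C1qc was at 0.15, Csf1r at 0.13 and Ctss at -0.06. Over d14, the d10 array stood at 0.77 for Cd68, 0.47 for Lgals3, 0.39 for C1qb, 0.37 for C1qc and 0.34 for Mrc1. By that ratio Csf1r was at 0.06, C1qa at 0.02 and Ctss at 0.00. Neutrophil markers were also high at d10: their 13 genes on the array summed to 9932.6, against 1777.6 to 4588.1 on the other days. Of the 12 that passed the filter, 11 were 1.5-fold above d0 at d10, as were 2.28% of all genes kept. The sum was also higher at d1 (3392.4) and d3 (4588.1) than at d0 (1777.6). Unlike most of the macrophage markers, it did not fall from d5 to d7, where it went from 2301.2 to 2991.5. Of the neutrophil markers, Cxcr2 never passed the filter, and Csf3r and Mmp8 did so only at d10. Mmp8, at 1.69 above d0 on that day (log2), is among the 11, while Csf3r, at 0.51, is not. The 5 eosinophil markers summed to 1396.0 at d10 and to 478.0 to 616.7 on the other days, and the 6 osteoclast markers to 1054.4 and to 647.2 to 849.3. Within these lists Siglecf and Ccr3 of eosinophils (133.4 and 63.7 at d10, 162.5 and 63.3 at d0) and Dcstamp and Calcr of osteoclasts (53.8 and 83.1, against 62.0 and 97.2) were lower at d10 than at d0 or, for Ccr3, within 0.01 of it (log2). The higher sums at d10 held Prg2 (447.4) and Ear6 (631.9) of eosinophils and Acp5 (362.6) and Mmp9 (350.2) of osteoclasts. The part of these cells in the values of the macrophage markers was not tested. Markers of dendritic cells (2 of 7 past the filter), T and NK cells (2 of 10) and B cells (1 of 5) were mostly below the filter, with sums of 730.4 to 803.7, 638.1 to 722.0 and 438.5 to 607.5 over the 7 arrays.

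Of 13 further pan-macrophage and leukocyte genes that passed the filter, 1 (Lcp1) was 1.5-fold above d0 at d1 and 6 were at d10. The shares of all genes kept were 3.45% and 2.28%. The median of the 13 was 0.34, 0.36, 0.19, 0.08, 0.46 and 0.01 from d1 to d14. At d10 that was above the 0.15 of the 10 markers, and against d14 it was 0.31 at d1, 0.32 at d3 and 0.57 at d10. Adgre1, which encodes the surface antigen F4/80, stood at 0.43, 0.36, 0.43, 0.01, 0.26 and -0.05. The highest at d10 were Cd52 (1.13), the actin-bundling protein Lcp1 (0.90) and the NADPH oxidase subunit Cybb (0.86), which stood at 0.43, 0.64 and 0.34 at d1. Monocyte genes had their highest median at d3 (0.46 over 8 genes, and 0.41 against d14). On that day 4 were past 1.5-fold, against 1.65% of genes, led by Vcan (0.89), Fn1 (0.79) and the integrin Itgam (0.59). Vcan and Fn1 encode matrix proteins that fibroblasts also make. Ccr2, the chemokine receptor of inflammatory monocytes, stood at 0.34 at d1 and 0.23 at d3.

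Of 19 other phagocytic genes that passed the filter, 1 was past 1.5-fold at d1, Cd63 (3.45% of genes), with a median of 0.20 (0.14 against d14). At d3, 3 were higher by 1.5-fold (1.65%), and at d10, 2 were (2.28%). By the same fold 1 was lower at d5, Gpnmb (0.802%), and 1 at d7, the Fc receptor gene Fcgr3 at -0.59 (0.859%). The tetraspanin Cd63 stood at 0.88 at d1, 0.60 at d3 and 0.39 at d5, and the signalling adaptors Fcer1g and Tyrobp at 0.57 and 0.46 at d1. Fcer1g was 0.85 at d3 and 0.79 at d10. Gpnmb, a lysosomal glycoprotein, stood at -0.38, -0.45 and -0.61 at d1, d3 and d5, and at -0.29 at d14. Its d0 array was its highest, at 247 against 161.9 to 202.1 on the later days. Of 11 other resident-type genes, 1 was past 1.5-fold at d1, the hyaluronan receptor Lyve1 at 0.77 (3.45% of genes), and 1 at d5 (1.36%). The median at d1 was 0.00, but 0.17 against d14. On that day 6 of the 11 were above d0, and the lowest was Cbr2 at -0.54. Lyve1 then stood at 0.48, 0.01, -0.04, 0.04 and -0.31 from d3 to d14, and lymphatic vessels make it too. Their median was lowest at d14 (-0.21), with F13a1 at -0.34 and Cd209d at -0.32; F13a1, a transglutaminase, had been at 0.44 at d1, whereas Cd209d was at -0.45.

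**Figure D4:**
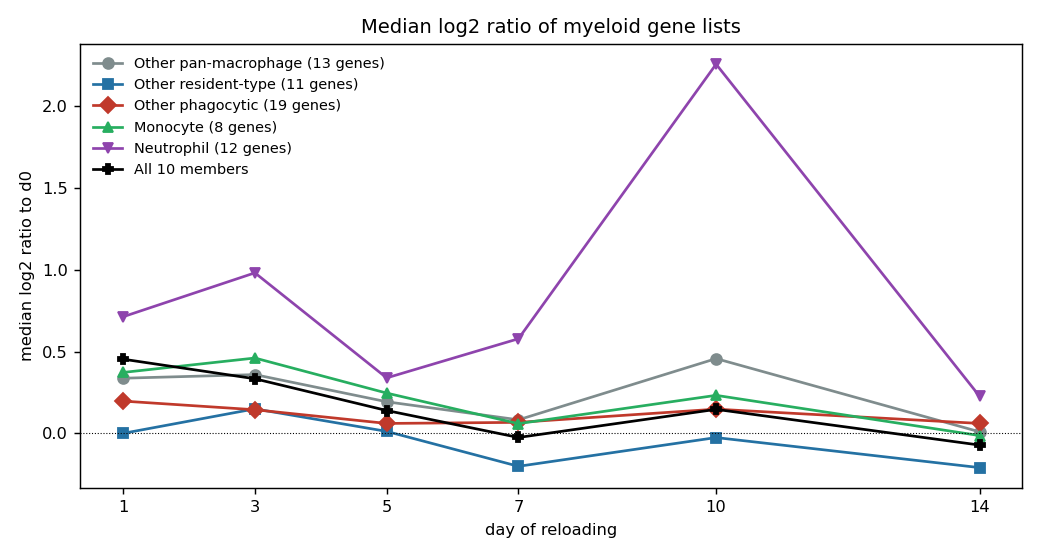
Median log2 ratio to d0 against the day of reloading for all 10 markers and for 5 lists of myeloid genes (genes past the filter; their number is in the legend), 1 pooled array per day. The markers are highest at d1, and the neutrophil list reaches 2.26 at d10, when the markers are at 0.15.

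Among 11 genes of Csf1r signalling and myeloid transcription factors none reached 1.5-fold at d3, against 1.65% of genes. Their median was largest on that day (0.26, and 0.02 against d14), with Cebpa at 0.41, Spi1 (PU.1) at 0.37 and Csf2rb at 0.34. Spi1 was 0.92 at d10. The ligand Csf1 stood between 0.03 and 0.26 on the 6 days and Il34 between -0.03 and 0.10. Of 11 other complement genes, 2 were past 1.5-fold at d3 (1.65% of genes), C4b (0.98) and the endothelial and myeloid receptor Cd93 (0.59). C3ar1 was at 0.28 and the list's median was 0.19 (0.13 against d14). C4b, which C1q activation cleaves, stood at 0.65 at d1, 0.59 at d5 and 0.63 at d10. Of 13 genes of the Cd14 and Tlr4 pathway, 1 was past 1.5-fold at d10, Tlr4 at 0.70, against 2.28% of genes. On that day Tnf was at 0.30 and Ly96 at 0.28, and the list's median was 0.19 (0.03 against d14). Tnf stood at 0.45, 0.40, 0.57, 0.90 and 0.45 at d1, d3, d5, d7 and d14, past 1.5-fold at d7 (1.74% of genes). It reached the array median only at d7, at 134.8 against 131.8, and so passed the filter through that array alone. Its d0 intensity was 72.1. Among 9 genes of haem and iron handling, 1 was past 1.5-fold at d1, haptoglobin (Hp) at 0.89, against 3.45% of genes. Hp stood at 0.59 to 0.88 on the later days. Its d0 array was its lowest, at 125.0 against 232.0 at d1 and 206.5 at d14. At d1 Blvrb was at 0.33 and Slc48a1 at -0.27, and the list's median was 0.14 to d0 and 0.01 to d14. The 5 MHC class II genes had a median of 0.16 at d5 (0.12 against d14), led by H2-Ab1 (0.28), H2-Aa (0.24) and H2-DMa (0.16). None reached 1.5-fold on any day, where 0.678% to 3.45% of genes were that much higher.

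The 5 genes whose 6 ratios to d0 differed least from those of Cd68 were Otud1, Enah, Ifrd1, Ttc9 and Rrad, with root mean square differences of 0.45, 0.46, 0.53, 0.54 and 0.55 on the log2 scale. Otud1, a deubiquitinase, stood at 2.09 at d1 and 0.98 at d3. Enah, an actin regulator, stood at 2.04 and 1.10, against 2.04 and 1.71 for Cd68. None of the 5 is on the cell type or pathway lists used here. At d5 these genes lay between 0.46 and 0.94, below the 1.13 of Cd68.

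A straight line over log2(day + 1) was fitted to each gene with limma. Over the 7 arrays no marker rose or fell at an adjusted p of 0.05 (0% of genes called either way; at an unadjusted p of 0.05, 9.19% of genes rose and 1.45% fell, and none of the markers). The slope of Cd68 was -0.25 ± 0.23 per doubling (SE, 7 arrays), with a limma adjusted p of 0.761. Since d0 comes before the peak, the line from d1 on describes the decline. Without d0 the slope was -0.87 ± 0.14 for Cd68 (limma adjusted p 0.0753), -0.22 ± 0.03 for Ctss (0.0540), -0.25 ± 0.06 for Mrc1 (0.170) and -0.27 ± 0.07 for Lgals3 (0.191). For the C1q chains it was -0.19 ± 0.07 (C1qb, limma adjusted p 0.302), -0.11 ± 0.06 (C1qc, 0.556) and -0.06 ± 0.06 (C1qa, 0.822), and for Csf1r -0.08 ± 0.03 (0.343). None passed at an adjusted p of 0.05, where 0.198% of genes fell and 0.157% rose. This line starts at d1, the highest array of most of these markers, so the negative sign of their slopes is set by that choice. With no filter on low values, Cd14 and Cd163 had slopes of 0.01 ± 0.03 and -0.02 ± 0.02 (limma adjusted p 0.996 and 0.883).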

How the data were processed

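RNA pooled from 6 mice per time point was extracted with Trizol and hybridised to 1 array each, per the labels' protocols and design text. The authors deposited normalized linear intensities, 1 per row and array. The submitters' processing notes name Partek, and how it corrected background, summarized probes or normalized is not given in the sources used here, nor is a build. Scanner files were not used, so detection above background is unknown.

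Values were put on a log2 scale (pseudocount 0). Symbols came from the platform annotation (21789 of 35556 rows with 1 symbol, 1621 with several, 12146 unlisted); the row of highest mean log2 stood for a gene. Genes were kept if they reached an array's median at least once. Counts used 1.5-fold. Named genes were the 10 markers and up to 3 genes per list with the largest ratio on the day of its most extreme median. Also named were 8 fixed genes (Ly6c2 had no row) and the 5 genes most like a marker past 2-fold. Cxcr2, Csf3r, Mmp8, Cd63, Gpnmb, Cbr2 and Fcgr3 were named after their values were seen. So were Lcp1 at d1, Tnf outside d10 and the eosinophil and osteoclast genes. Trends used limma 3.58.1 (R 4.3.3, lmFit, eBayes with trend, Benjamini-Hochberg), tested on simulated data. Python 3.11.15 did the rest. Markers and lists were chosen with earlier results of these data known. Alternatives covered normalization, pseudocount 32, gene rows, reference, threshold, filter and arrays left out.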

Additional observations from a re-analysis of the deposited data

How the results depend on the processing

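A difference counted as moved when it passed the robust SD over genes of that day's ratio, and a count when it changed by over 1.5 times. Of 254 alternative values for the medians, counts, set differences and trends, 223 stayed. The other named genes and the gene lists were not put through these alternatives, apart from list medians against d14. No single-marker value past 1.5-fold changed sign in the alternatives computed for it. Some values nearer 0 did. Resident-type minus phagocytic turned positive at d3 and d5 without Cd68, and at d7 and d10 against the mean of the remaining 6 arrays. It was 0.023 at d7 with Cd163 alone and 0.0018 at d10 without Cd68. At d14 it turned to -0.0058 without Cd68 and -0.010 with Mrc1 alone. The d7 marker median turned positive against d14 (0.09), and the d7 mean over the markers was 0.0035. Single markers below d0 but above d14 included Cd68 (0.27), Lgals3 (0.19) and C1qb (0.13) at d7 and Lgals3 at d5 (0.20). Set against the mean of the remaining 6 arrays, the marker median was 0.24 at d1 and -0.22 at d14, 2, 1, 0 and 0 markers were 1.5-fold higher at d1, d3, d5 and d10, 1 was 1.5-fold lower at d7 and 1 at d14, and resident-type minus phagocytic was -0.050, 0.11, 0.11 and 0.26 at d5, d7, d10 and d14. At d1, quantile normalization and a pseudocount of 32 each left 2 markers past 1.5-fold. The share of all genes past 1.5-fold was not computed for that reference, normalization or pseudocount. These counts therefore cannot be set beside a general rate. At 2-fold, 1 marker passed at d1, d3 and d5 and 0 at d10, and against d14, 1 passed 1.5-fold at d5. Resident-type minus phagocytic was -0.12, 0.025 and 0.066 at d1, d3 and d5 without Cd68, -0.28 and -0.16 at d1 and d3 with Mrc1 alone, and -0.78 and -0.56 with Cd163 alone. In the limma trend, 1 gene rose with equal array medians and 1 with a filter at percentile 75; without d0, 19 rose and 24 fell, or 3 fell with no filter as well, a setting chosen after seeing the data. Of 170 values of single markers, 141 stayed; the other 29 moved against d14. No paired analysis was possible because each group is 1 array and the labels carry no replicate number. The spread over genes is taken across different genes and is not the error of any 1 gene or set. With 1 array per day that error is unknown, so small differences between days cannot be resolved.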
